A study of Mus musculus with 13 samples.

Results

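The oocyte-secreted factor genes Gdf9, Bmp15, Fgf8, Oosp1, Oosp2 and Oosp3 were followed across ribosome profiling and antibody pulldown libraries of mouse oocytes. They were found by matching the Ensembl identifiers of the count files to gene symbols, which gave 6 of the 22442 genes listed. Ribosome profiling (Ribo-seq), which sequences the stretches of mRNA that ribosomes protect from RNase I, had been done on WT and Nat10-ZcKO oocytes of C57BL/6J mice. Germinal vesicle (GV) oocytes, arrested in prophase before maturation, gave 3 WT and 3 Nat10-ZcKO libraries, and mature metaphase II (MII) oocytes gave 2 WT and 3 Nat10-ZcKO libraries. Acetylated RNA immunoprecipitation (acRIP-seq) of WT GV oocytes gave 1 library with an antibody against N4-acetylcytidine (ac4C), the base that NAT10 makes, and 1 with control IgG.

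In Nat10-ZcKO females the floxed Nat10 allele is removed by Cre under the Zp3 promoter, which is active in growing oocytes from the primary follicle onwards and not in granulosa cells. The methods describe prepubertal females primed with PMSG for GV oocytes, and with hCG as well for ovulated MII oocytes, and each Ribo-seq library pooled many oocytes that had been held in cycloheximide. The design text also mentions tamoxifen injections, which the methods name only for fibroblast lines, so whether these mice received tamoxifen is not settled here. The methods give at least 3 biological replicates as the general rule, and WT MII has 2 libraries. Which animals each library came from is not given, so p-values measure the spread between libraries, part of which may be technical. A footprint level joins the amount of an mRNA with its use by ribosomes, and in pooled oocytes fewer oocytes cannot be told apart from less RNA per oocyte.

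GDF9 and BMP15 are ligands of the TGF-beta family that growing oocytes secrete to the surrounding granulosa and cumulus cells. They are made as precursors that proprotein convertases cut, bind type 1 and type 2 serine kinase receptors and act through SMAD proteins, and both are required for normal follicle growth or ovulation in mice. FGF8 is an oocyte ligand of FGF receptors that acts with BMP15 on cumulus glycolysis. The OOSP proteins are small secreted proteins of the oocyte, and their genes lie side by side on chromosome 19.

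On the GRCm38 assembly, Gdf9 occupies chr11:53431023-53437904 on the plus strand and Bmp15 occupies chrX:6314107-6320721 on the minus strand. Oosp2 at chr19:11647279-11660559 (minus), Oosp1 at chr19:11667460-11691150 (minus) and Oosp3 at chr19:11697055-11711874 (plus) follow each other, and Fgf8 lies far from them at chr19:45736798-45742915 (minus). All 6 are protein-coding genes. Cut into stretches of 28 bases, about a footprint, the coding sequences of these genes shared no stretch with each other, so an exact match of 28 bases to one could not be counted for another. Shorter footprints and reads with mismatches were not checked. Only Oosp3 shared stretches with any other gene, 34 of 558 (6.09%), all with the pseudogene Gm19224, and counts on these stretches cannot be assigned with certainty.

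Translation in maturing oocytes is known to be timed through the end of the 3′ UTR, where CPEB proteins bind cytoplasmic polyadenylation elements beside the polyadenylation signal. The 30 bases around the last AATAAA signal before the annotated transcript end are therefore shown for 5 genes, 5′ to 3′ (GENCODE M21, GRCm38). This signal starts 93 bases before that end in Oosp1 and 19 to 28 bases before it in the others shown. Capitals mark the signal AATAAA and, where the window holds one, the element TTTTAT.
Gdf9 (chr11:53437864-53437893, plus): ggTTTTATgtgacggaagAATAAActgttg
Bmp15 (chrX:6314123-6314152, minus): attttcttaatcttaaagAATAAAttttca
Oosp1 (chr19:11667541-11667570, minus): tataaaatctgattaaagAATAAAaatttc
Oosp2 (chr19:11647294-11647323, minus): attcctatacatcaatgaAATAAAggctca
Oosp3 (chr19:11711822-11711851, plus): ctgtaaccacaacctataAATAAAacattt

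Gdf9 held the element TTTTAT starting 16 bases before its signal. In the last 100 bases of the transcript, searched on the transcribed strand for TTTTAT or TTTTAAT, Gdf9 had 1 match and Oosp3 had 2, and Bmp15, Fgf8, Oosp1 and Oosp2 had none. Such a match was present in 16.6% of 21852 genes, and 74.9% held AATAAA or ATTAAA there. Fgf8 had no match to either signal in its last 100 bases, so no site is shown for it. A match describes letters in this window and does not show that a protein binds. Nor is the window alike for each gene. The AATAAA of Oosp1 starts 93 bases before its annotated end, so little sequence before that signal was searched. In Oosp3 the last of the 2 matches starts after the signal, not before it.

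The Ribo-seq libraries held 4815 to 279464 counts on coding sequences, so a count of 0 allowed a level of up to 10.7 to 623 CPM, the counts scaled to a common library total, taking 3 counts as the limit. 3 libraries stood apart, namely Nat10-ZcKO GV replicates 1 and 2 and WT MII replicate 2. The 12 oocyte marker genes took 0.0236% of counts in Nat10-ZcKO GV replicate 1, 1.49% in replicate 2 and 0.104% in WT MII replicate 2, against 5.66% to 11.2% in the other GV libraries and 1.74% to 3.09% in the other MII libraries. The 12 adipocyte markers took 1.25% and 0.275% in those 2 Nat10-ZcKO GV libraries and at most 0.0281% elsewhere, and the 12 granulosa markers took 0.131% to 1.25% in all libraries but WT MII replicate 2, where they were at 0. WT MII replicate 2 held 4815 counts in all. Nat10 itself had 22 counts over the WT GV libraries, 10 over Nat10-ZcKO GV, 11 over Nat10-ZcKO MII and 6 over WT MII, too few to check the genotype labels. Results are given with all libraries and over the other 8 libraries.

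Gdf9 was among the genes with the most footprints at both stages. In WT GV oocytes it stood at 2743, 3324 and 3006 CPM. In Nat10-ZcKO GV oocytes it stood at 0, 1682 and 1573 CPM, and the 0 came from replicate 1, where the oocyte markers were nearly absent. In MII oocytes it stood at 5273 and 0 CPM in WT, the 0 from the library of 4815 counts, and at 4421, 4280 and 4703 CPM in Nat10-ZcKO. In the 8 libraries that did not stand apart, Gdf9 ranked 13 to 43 among all genes by CPM. In those libraries every MII value lay above every GV value, and the only GV library of Nat10-ZcKO that remained lay below all 3 of WT.

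Bmp15, the partner ligand encoded on the X chromosome, was lower and less even. It stood at 550, 605 and 572 CPM in WT GV and at 0, 348 and 354 CPM in Nat10-ZcKO GV. In MII it stood at 349 and 0 CPM in WT and at 207, 75.0 and 482 CPM in Nat10-ZcKO. The WT GV values lay close together and above all others, while the 3 Nat10-ZcKO MII values spread over more than the distance between any group means. Per coding length, in TPM, which scales counts by coding length as well, Gdf9 averaged 2951 ± 295 and Bmp15 632 ± 32.6 in WT GV (SD, n = 3).

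Fgf8 was barely seen. Its counts were 0, 2 and 3 in WT GV, 0, 0 and 1 in Nat10-ZcKO GV, 5, 1 and 0 in Nat10-ZcKO MII and 0 in both WT MII libraries. The highest value, 31.2 CPM in WT GV replicate 3, rests on 3 counts, which is the limit used for a count of 0 in that library. A difference between groups was not detectable at this depth, and Fgf8 passed the filter on low counts in no comparison.

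Oosp1 was among the highest genes in MII and lower in GV, where it ranked 303 to 448 by CPM in WT. It stood at 337, 268 and 354 CPM in WT GV and at 0, 851 and 177 CPM in Nat10-ZcKO GV. In MII it stood at 2759 and 208 CPM in WT, the latter a single count, and at 3511, 2038 and 3231 CPM in Nat10-ZcKO. Apart from that single count, every MII library lay above every GV library. Per coding length it averaged 681 ± 98.5 TPM in WT GV and 6279 ± 1542 TPM in Nat10-ZcKO MII (SD, n = 3), above the 4409 ± 129 TPM of Gdf9 in the same MII libraries.

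Oosp2 ran the other way. It stood at 591, 454 and 645 CPM in WT GV and at 0, 174 and 844 CPM in Nat10-ZcKO GV. In MII only 2 and 0 counts were left in WT and 7, 5 and 1 in Nat10-ZcKO, which is 14.8 and 0 CPM and 37.2, 34.1 and 6.26 CPM. Every MII library lay below every GV library other than Nat10-ZcKO GV replicate 1.

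Oosp3 moved with Oosp1 at a lower level. It stood at 68.7, 89.5 and 52.0 CPM in WT GV and at 0, 0 and 25.3 CPM in Nat10-ZcKO GV. In MII it stood at 630 and 0 CPM in WT and at 734, 450 and 833 CPM in Nat10-ZcKO. Other than the library of 4815 counts, every MII library lay above every GV library.

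**Figure D1:**
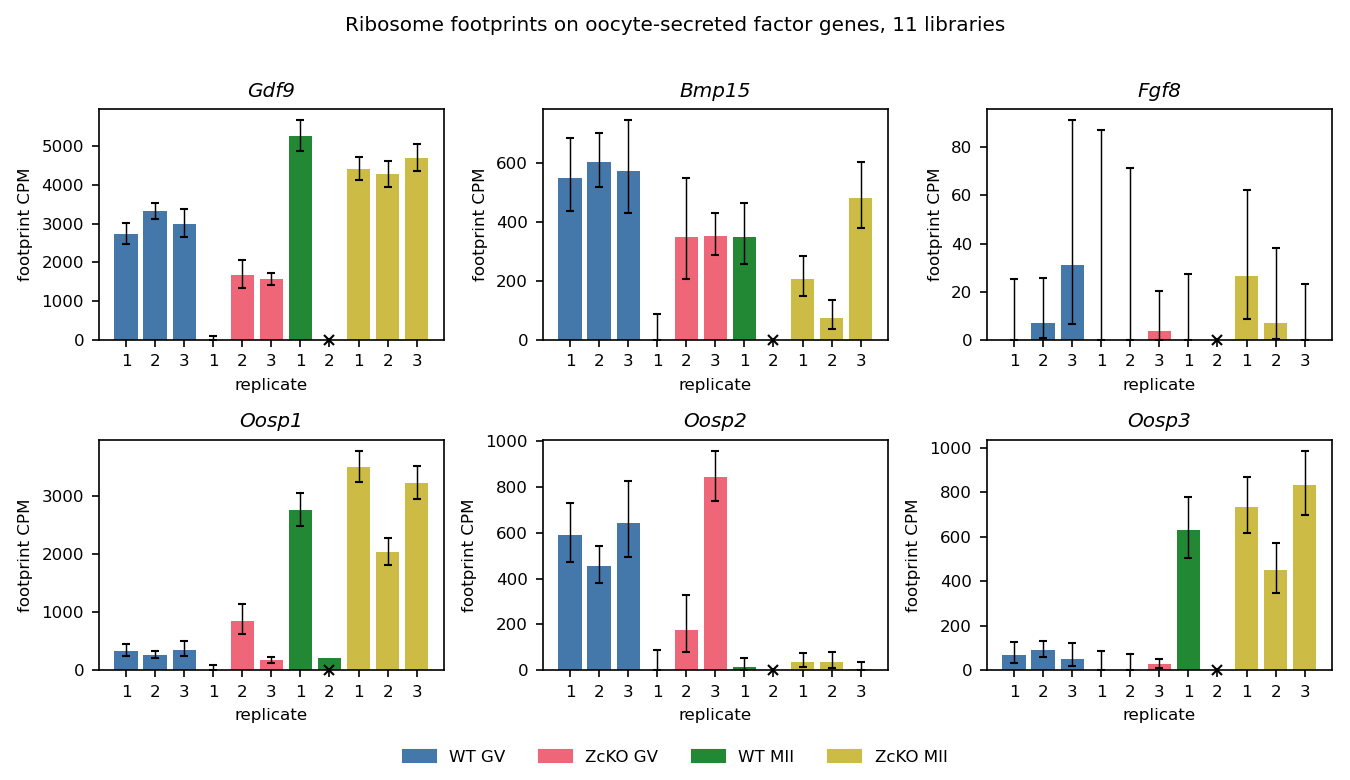
Footprint level (CPM, linear axis from 0) of each gene in the 11 Ribo-seq libraries, with bars coloured by group, numbered by replicate and carrying 95% exact counting intervals. The cross marks WT MII replicate 2, the library of 4815 counts, drawn without an interval. Gdf9, Oosp1 and Oosp3 stand higher in MII, Oosp2 is high in GV and near 0 in MII, and Fgf8 rests on at most 5 counts.

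The first question was how the genes differed between GV and MII oocytes. Over the 8 libraries that did not stand apart, 4 in each stage, with genotype as a covariate, Oosp2 fell 39.3-fold and Oosp1 and Oosp3 rose 10.7-fold and 12.1-fold, while Gdf9 rose 2.0-fold. As log2 fold changes (MII minus GV) with standard errors, Oosp2 was at -5.30 (SE 0.40), Oosp1 at 3.42 (SE 0.32), Oosp3 at 3.59 (SE 0.40) and Gdf9 at 1.0 (SE 0.31). Their adjusted p-values by edgeR's quasi-likelihood test with Benjamini-Hochberg adjustment were 1.16e-11, 7.35e-10, 1.49e-08 and 0.00754. Bmp15 was at -0.73 (SE 0.40, edgeR adjusted p = 0.120) and did not pass. Of the 4029 genes tested 55.1% passed, 25.0% higher and 30.1% lower in MII, so 4 of 5 tested members stands against a stage at which most genes moved. This fit was chosen after the values were seen, and its groups are uneven, with 3 WT and 1 Nat10-ZcKO libraries in GV and 1 WT and 3 Nat10-ZcKO libraries in MII.

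Leaving out each of these 8 libraries in turn kept the calls of Oosp1, Oosp2 and Oosp3. The size of the Oosp3 rise was less settled, at 22.8-fold without WT MII replicate 1 and 8.94-fold without Nat10-ZcKO GV replicate 3, while Oosp1 rose 9.28-fold to 14.3-fold and Oosp2 fell 31.8-fold to 43.2-fold. Without Nat10-ZcKO GV replicate 3, Gdf9 was at 0.89 (edgeR adjusted p = 0.0845) and no longer passed, and without Nat10-ZcKO MII replicate 3, Bmp15 was at -1.16 (edgeR adjusted p = 0.00394) and passed. Scaling by library size in place of TMM moved the median log2 fold change of all genes from -0.14 to 0.03, and the same 4 members passed with their directions kept.

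Within each genotype and with every library, fewer members passed. In WT, 3 GV against 2 MII libraries, Oosp2 was at -4.86 (SE 1.54, edgeR adjusted p = 0.0154) and Oosp3 at 2.99 (SE 0.78, edgeR adjusted p = 0.00369), which made 2 of 5 tested members against 21.5% of all 2045 genes tested. Both calls were lost without WT GV replicate 1 (edgeR adjusted p = 0.111 for Oosp2 and 0.170 for Oosp3) and without WT GV replicate 3 (0.180 and 0.327), and that of Oosp2 was lost without WT GV replicate 2 (0.545), where no member passed. Both were also lost with all 11 libraries in 1 fit (edgeR adjusted p = 0.0664 and 0.282) and with no filter on low counts (0.573 and 0.691). Without WT MII replicate 1, which leaves the library of 4815 counts as the only WT MII library, all 5 tested members were called lower. Without WT MII replicate 2 instead, Gdf9 was at 0.88 and Oosp1 at 3.20. That fit also has a single WT MII library, so the spread within MII is not measured and only effect sizes are given.

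In Nat10-ZcKO, 3 GV against 3 MII libraries, Oosp3 was at 5.04 (SE 0.98, edgeR adjusted p = 0.0145), the only call among 4 tested members, where 16.2% of all 2225 genes passed. Its adjusted p rose to 0.0765, 0.0643 and 0.118 without MII replicates 1, 2 and 3, and no member then passed. Oosp1 was at 2.94 (SE 1.23, edgeR adjusted p = 0.105), and without GV replicates 1 and 2 it was at 3.75. Without those libraries Oosp2 entered the fit, at -5.32. This leaves 1 GV library against 3 MII libraries, so the spread within GV is not measured and only effect sizes are given. Without GV replicate 1 alone, 3 members passed.

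Whether the stage effect differed between genotypes was tested as an interaction, and none of 5 tested members passed (0.906% of 3863 genes did). The Oosp3 interaction was at 3.34 (SE 1.91, edgeR adjusted p = 0.806) and the other 4 were between 1.18 and 2.28 with standard errors of 1.82 to 2.44. Without WT MII replicate 1, 4 members passed this test, again against the library of 4815 counts alone.

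**Figure D2:**
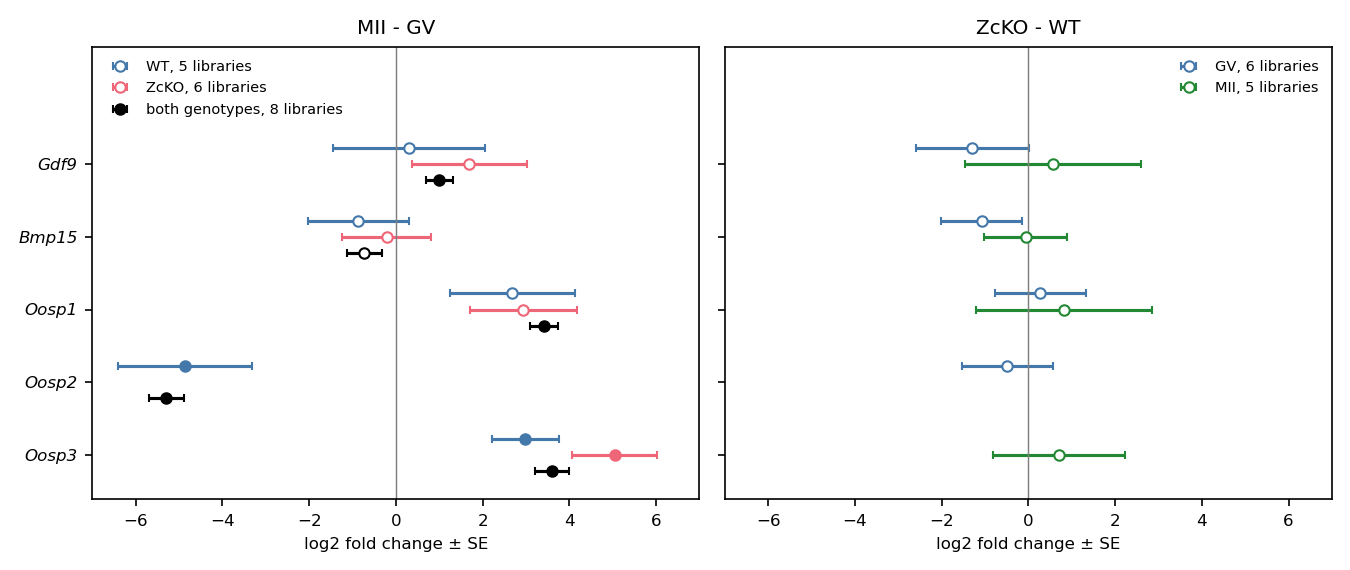
Log2 fold change with standard error for the genes that passed the filter, MII minus GV on the left and Nat10-ZcKO minus WT on the right. Filled points passed an adjusted p of 0.05 in edgeR and open points did not. Oosp2 lies far below 0 and Oosp1 and Oosp3 far above 0 between stages, and no point is filled on the right.

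Because Oosp1 and Oosp2 are neighbours of like coding length, their balance within a library needs no scaling between libraries. Oosp1 took 36.3%, 37.1% and 35.4% of the counts on both genes in WT GV. It took 83.0% (44 of 53 counts) and 17.3% (49 of 283) in Nat10-ZcKO GV replicates 2 and 3, and replicate 1 had no count on either gene. In MII it took 99.5% in WT replicate 1, and 98.9%, 98.4% and 99.8% in Nat10-ZcKO. The 95% Clopper-Pearson intervals were 25.9% to 45.8% or narrower in WT GV, 70.2% to 91.9% and 13.1% to 22.2% in the 2 Nat10-ZcKO GV libraries, and 96.2% or above in these 4 MII libraries. WT MII replicate 2 held a single count on the 2 genes, with an interval of 2.5% to 100%, and was left out. These intervals cover counting error only, since amplified reads without molecular identifiers are not independent molecules.

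The 3 WT GV libraries agreed within 1.71 percentage points, whereas the 2 Nat10-ZcKO GV libraries lay on either side of them with intervals that did not overlap those of WT. Replicate 2 is also the one in which the adipocyte markers took 0.275% of counts and the oocyte markers 1.49%, and their part in its value was not tested. Over libraries with at least 10 counts on the 2 genes the share averaged 99.1% ± 0.633 in MII (SD, n = 4) and 41.8% ± 24.5 in GV (SD, n = 5), a difference of 57.3 percentage points (two-sided exact permutation test, p = 0.0159). Without Nat10-ZcKO GV replicate 2 the GV mean was 31.5% and the difference 67.6 percentage points (exact permutation p = 0.0286, the smallest that 4 against 4 libraries can give). This measure was also chosen after its values were seen.

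**Figure D3:**
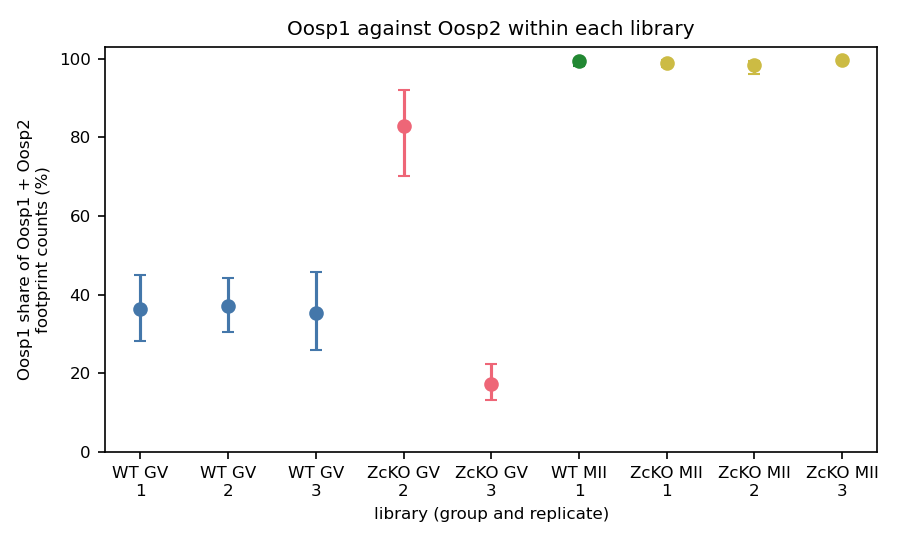
Share of Oosp1 among the footprint counts on Oosp1 and Oosp2 (percent) in the 9 libraries with at least 10 such counts, with 95% exact binomial intervals and colours by group. WT GV sits at 35.4% to 37.1%, the 2 Nat10-ZcKO GV libraries at 83.0% and 17.3%, and all MII libraries above 98%.

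The members were also counted against the 12 oocyte markers of the same library in place of all its counts. Per 100 marker counts Gdf9 gave 4.85, 4.29 and 3.89 in WT GV, 11.3 and 1.41 in Nat10-ZcKO GV replicates 2 and 3, 14.3, 24.6 and 15.6 in Nat10-ZcKO MII and 23.1 in WT MII replicate 1. Oosp1 gave 0.596, 0.347 and 0.457 in WT GV and 10.7 to 12.1 in these 4 MII libraries. The 5 members were tested in 3 comparisons, 15 tests in all, on log2 ratios with 0.5 added to both counts, and p-values are unadjusted. Nat10-ZcKO GV replicate 1 and WT MII replicate 2 had 10 and 5 marker counts and at most 1 count on a member, so their ratios are largely set by the 0.5 added and the stages were compared over the 8 libraries. There the ratio was higher in MII by 2.53 for Gdf9, 5.02 for Oosp1 and 5.19 for Oosp3 and lower by 3.11 for Oosp2 (exact permutation p = 0.0286 for each, the smallest that 4 against 4 libraries can give), and Bmp15 was at 0.52 (exact permutation p = 0.486). With all 11 libraries the differences were 1.93, 3.97, 4.56 and -2.32 for those 4 genes in that order. Their exact permutation p-values were 0.00649, 0.00649, 0.0130 and 0.130, so Oosp2 did not pass. These differences include the ratios that are largely set by the 0.5 added. The markers are no fixed measure of oocytes across stages, since 10 of 12 were lower and 2 higher in MII in the 8-library fit, with a median of -3.93 on the log2 scale.

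The second comparison asked whether loss of Nat10 altered the footprints of these genes. In GV oocytes no gene of 1765 passed (edgeR, 0% called, although 60 genes lay higher and 25 lower with an unadjusted p under 0.05, and 3 passed in DESeq2), and none of the 4 tested members did. Gdf9 was at -1.29 (SE 1.29, edgeR adjusted p = 0.900), Bmp15 at -1.08 (SE 0.94), Oosp1 at 0.27 (SE 1.05) and Oosp2 at -0.49 (SE 1.05). Without Nat10-ZcKO GV replicates 1 and 2, Gdf9 was at -0.74 (SE 0.27, edgeR adjusted p = 0.167), Oosp1 at -0.64, Oosp3 at -1.33 and Oosp2 at 0.79 (edgeR adjusted p = 0.167). This leaves 3 WT libraries against 1, and the lone Nat10-ZcKO library is assumed to vary like WT. It held the lowest Gdf9 per 100 marker counts of the GV libraries with any, 1.41, and the highest Oosp2 level of all libraries, 844 CPM.

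In MII oocytes 4 of 2097 genes passed (0.191%), and none of the 4 tested members was among them. Gdf9 was at 0.56 (SE 2.03), Oosp1 at 0.82 (SE 2.03), Oosp3 at 0.71 (SE 1.53) and Bmp15 at -0.06 (SE 0.96), with edgeR adjusted p = 0.997 for each. Over libraries that did not stand apart, the Nat10-ZcKO MII mean was 0.847 times the WT value for Gdf9, 0.731 times for Bmp15, 1.06 times for Oosp1 and 1.07 times for Oosp3, from 3 libraries against 1. Oosp2 was at 1.74 times, from 1 to 7 counts a library. Without WT MII replicate 1 all 4 tested members were called higher in Nat10-ZcKO, where only the library of 4815 counts was left in WT, with 1 count on Oosp1 and 0 on the other 3. Against the oocyte markers, no genotype difference could pass 0.05, since the exact permutation test of 3 against 3 or 2 against 3 libraries allows no p under 0.1. With all libraries these differences rest in part on libraries with 0 or 1 counts on the gene. Over the libraries that did not stand apart, Oosp1 in GV was at -1.53 and Bmp15 in MII at -0.97, with 1 library on one side.

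The genes that process, receive and answer these ligands came from lists chosen for the pathway, and their stage effects were taken from the same fit over 8 libraries, in which 25.0% of genes passed as higher and 30.1% as lower. Of 4 proprotein convertases only Pcsk5, a secretory pathway convertase of the family that cleaves TGF-beta precursors, passed the filter, and it rose by 5.05 (SE 0.48, edgeR adjusted p = 9.47e-10). Its counts were 1, 3 and 1 in WT GV, 0, 0 and 3 in Nat10-ZcKO GV, 89, 49 and 26 in Nat10-ZcKO MII and 59 and 0 in WT MII. Furin, the ubiquitous convertase, had 4, 18 and 6 counts in WT GV and 3, 8 and 5 in Nat10-ZcKO MII, and was too low to be tested, as were Pcsk6 and Pcsk7.

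Of 17 receptors and SMADs, 7 were tested, 4 were higher in MII and none was lower, with a median of 2.10 beside -0.14 for all genes. Bmpr1a, a type 1 receptor for BMP ligands, rose by 5.98 (SE 0.82), and Bmpr1b, the type 1 receptor that BMP15 binds, rose by 2.10 (SE 0.64). Among the libraries of this fit, Bmpr1a had 1 GV count, from WT replicate 2, and 15 to 30 counts per MII library. The size of the Bmpr1a rise is therefore a fitted value that depends on the prior count. Fgfr2, an FGF receptor, rose by 2.28 (SE 0.70), and Smad3, the effector of GDF9 in granulosa cells, rose by 1.93 (SE 0.54). Bmpr2, the type 2 receptor of both ligands, was at -1.05 (SE 0.66, edgeR adjusted p = 0.170) and Tgfbr1, the type 1 receptor for GDF9, at 0.75 (SE 0.64, edgeR adjusted p = 0.319). In Nat10-ZcKO alone, with all 6 libraries, Pcsk5, Bmpr1a and Bmpr1b also passed, at 4.93, 4.09 and 3.86, and Smad3 did not, at 1.40 (edgeR adjusted p = 0.206).

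Of 14 other TGF-beta and FGF ligands only 3 were tested. Bmp6, also made by oocytes, was higher by 1.70 (SE 0.73, edgeR adjusted p = 0.0486). In Nat10-ZcKO with all 6 libraries it was at -2.0 (edgeR adjusted p = 0.140), and its levels in GV replicates 1 and 2, 449 and 213 CPM, were above those of all other libraries. The activin subunit genes Inhba and Inhbb fell by 1.0 (SE 0.34) and 3.19 (SE 0.48). Neither Fst nor Grem1, the 2 of 5 secreted inhibitors tested, passed, at 0.74 (SE 0.44) and 1.87 (SE 0.85). The transcription factors Nobox, Lhx8 and Figla, which are known to drive oocyte genes in the growing follicle, fell by 4.89 (SE 0.44), 4.56 (SE 0.55) and 4.51 (SE 0.96), and these were all 3 tested of 5. In Nat10-ZcKO with all 6 libraries, Inhba (-0.83), Inhbb (-2.65) and Lhx8 (-3.48) kept their direction without passing (edgeR adjusted p = 0.434, 0.0897 and 0.0822).

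Some cumulus genes that GDF9 or BMP15 are known to induce were present in the MII libraries. Of 10 such genes 6 were tested and 5 were higher in MII, with a median of 4.42. Npr2, Slc38a3, Sqle and Has2 were too low to be tested. Npr2 had 6, 13 and 6 counts in WT GV, 3, 3 and 11 in Nat10-ZcKO GV and 0 in every MII library. Slc38a3 had 3, 12 and 1 counts in WT GV and 4, 1 and 2 in Nat10-ZcKO GV. In MII it had 0 and 2 in WT and 0 in Nat10-ZcKO. Sqle had 0 to 9 counts a library across both stages, and Has2 at most 2. Ptx3, a protein of the expanded cumulus matrix, had 0 counts in every WT GV library, 221, 62 and 127 in Nat10-ZcKO MII and 285 and 0 in WT MII. Tnfaip6, which links hyaluronan in that matrix, had 0 counts in all 6 GV libraries, 83, 31 and 47 in Nat10-ZcKO MII and 75 and 0 in WT MII, which is at least 6.64 higher on the log2 scale over the 8 libraries, taking 3 counts over the GV libraries as the limit. Ptgs2, the prostaglandin synthase of the ovulating follicle, rose by 5.54 (SE 0.72), from 2, 0 and 0 counts in WT GV and 0, 0 and 1 in Nat10-ZcKO GV. The glycolytic genes Ldha and Pfkp rose by 3.31 (SE 0.50) and 1.74 (SE 0.50), whereas Cyp51, of cholesterol synthesis, was at 0.69 (SE 0.66). In Nat10-ZcKO with all 6 libraries Ptx3 and Tnfaip6 also passed, whereas Ldha was at -0.56 (edgeR adjusted p = 0.669) and Pfkp at 1.07 (edgeR adjusted p = 0.297), and Ldha stood at 519 and 271 CPM in GV replicates 1 and 2 beside 113 to 304 CPM in the 4 MII libraries. The 12 granulosa markers took 0.131% to 0.372% of counts in these 4 MII libraries and 0.251% to 0.522% in the 4 GV libraries, and 2 of the 10 tested rose and 4 fell. How much RNA of cumulus cells contributed to the members' values was not tested.

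**Figure D4:**
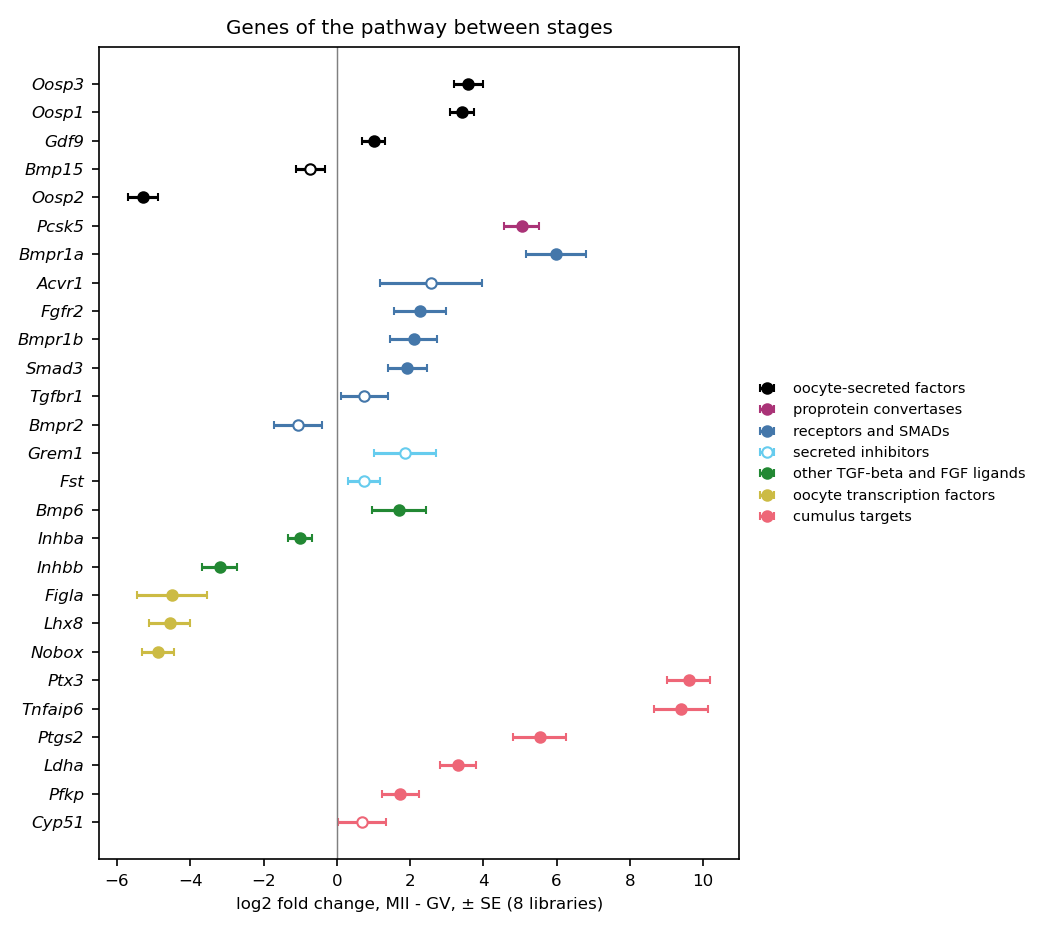
Log2 fold change (MII minus GV, 8 libraries) with standard error for every tested gene of the lists, coloured by list, where filled points passed an adjusted p of 0.05 in edgeR. Pcsk5, 4 receptor or SMAD genes and 5 cumulus genes are filled points above 0, and the 3 oocyte transcription factors lie near the level of Oosp2. The points of genes with few or no GV counts, among them Ptx3, Tnfaip6, Bmpr1a, Ptgs2 and Pcsk5, are fitted values that depend on the prior count.

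The genes whose levels followed each member most closely over the 11 libraries were ranked by Pearson's r of log2 CPM among 3862 genes, as a description of libraries that differ in depth and oocyte content. For Gdf9 they were Zbed3 (r = 0.983), Tacc2 and Pla2g4c, and for Bmp15 Ppfibp2 (r = 0.968), Dop1b and Poc1a. For Oosp1 they were Bcl2l10 (r = 0.990), Tcl1 and Cdh1, and for Oosp3 Thumpd1 (r = 0.996), Smco4 and Atl1. Over the 8 libraries none of these was still among the 3 closest, and Oosp3 was then nearest to Bcl2l10 (r = 0.996). Between members, r over the 8 libraries was 0.986 for Oosp1 with Oosp3, -0.984 for Oosp1 with Oosp2 and -0.231 for Gdf9 with Bmp15, which over all 11 libraries was 0.892.

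In the acRIP-seq libraries the question was how the share of counts on each mRNA differed between the ac4C antibody and IgG. A ratio of CPM compares shares within each pulldown and not amounts pulled down. The ac4C library held 970997 counts on genes and the IgG library 116232, and with 1 library each the ratios have no replicate check. Gdf9 had the highest count of all genes in both libraries, with 6266 and 1845. Its ratio of CPM was 0.407 (95% Clopper-Pearson interval 0.386 to 0.428), so its share of counts was 2.46-fold lower with the ac4C antibody than with IgG. With counts on no feature and ambiguous counts in the library size, of which the IgG library holds the larger share, it was 1.58-fold lower (ratio 0.631), and that scaling moved every gene by the same factor, Oosp1 from 1.38 to 2.15. Only 8.63% of the 4680 genes with at least 50 counts had a lower ratio, and the median of these genes was 1.27. Bmp15 had 1950 and 95 counts and a ratio of 2.46 (interval 2.0 to 3.05), above 72.9% of those genes.

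The 3 neighbouring genes on chromosome 19 lay close to the median. Oosp1 had 1340 and 116 counts and a ratio of 1.38 (interval 1.14 to 1.69). Oosp2 had 191 and 17 counts and a ratio of 1.34 (interval 0.818 to 2.36), and Oosp3 had 182 and 17 counts and a ratio of 1.28 (interval 0.779 to 2.25). Fgf8 had 33 and 0 counts, which against the limit of 3 counts in the IgG library is at least 1.32-fold higher with the ac4C antibody. The intervals of Gdf9 and Bmp15 overlapped neither each other nor those of the Oosp genes, other than that of Bmp15 with Oosp2 and Oosp3. A ratio above 2 was found for 32.8% of the 4680 genes.

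**Figure D5:**
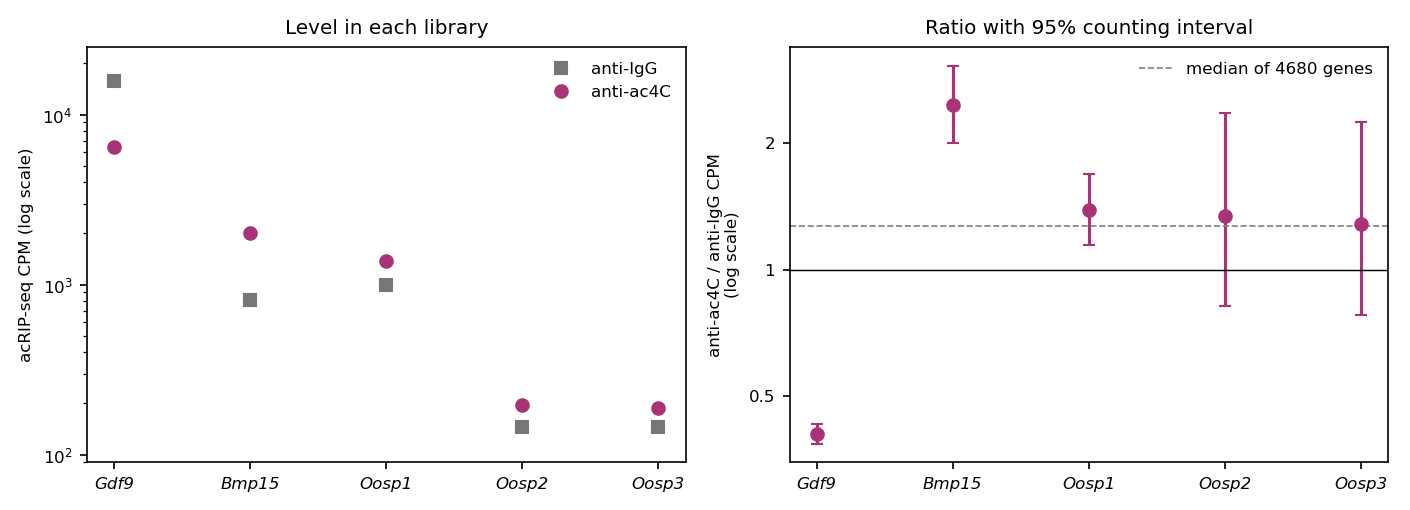
Level of 5 members in the anti-IgG and anti-ac4C libraries of WT GV oocytes (CPM, log scale, left) and the ratio of the 2 libraries with its 95% counting interval (log scale, right), where the dashed line is the median of 4680 genes. Gdf9 lies at 0.407, below 1, Bmp15 at 2.46, and the 3 Oosp genes within 1.28 to 1.38.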

How the data were processed

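The authors deposited raw counts per gene, on coding sequences for Ribo-seq and on genes for acRIP-seq. The submitters' processing notes name cutadapt, STAR and HTSeq with the mm10 build, and versions are not given in the sources used here. Ensembl identifiers were matched to GENCODE M21 (GRCm38), 22399 of 22442 matching. In the acRIP-seq files 46.7% (IgG) and 17.1% (ac4C) of counts lay on no feature, and these and ambiguous counts were kept out of library sizes. Each comparison was fitted on all genes that passed filterByExpr with edgeR 4.0.16 (TMM, quasi-likelihood test, prior count of 0.125) in R 4.3.3, and a call is a Benjamini-Hochberg adjusted p under 0.05. Standard errors were taken from the log2 fold change and its F statistic, as the ratio of the former to the root of the latter. Exact permutation tests were two-sided (Python 3.11.15). The fits were also run on simulated counts, drawn from a shared mean profile at the depths of these libraries. Such counts do not hold the differences in oocyte content between libraries. DESeq2 1.42.0, other scalings, no filter, a replicate block and leaving out libraries were tried as alternatives. CPM divides by the counts of the library, TPM also by coding length.

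The members and gene lists were chosen with earlier results of these data known. Named genes are the 6 members, Nat10, the 3 genes closest to each member with at least 10 counts in at least 6 libraries, and, in each list, the 4 genes of largest summed CPM and any gene called, with other tested or listed genes named for completeness after their values were seen. In the marker lists only counts are given. Oocyte content was judged from the summed share of 12 markers.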

Additional observations from a re-analysis of the deposited data

How the results depend on the processing

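Depth and oocyte content both limit these results, since in WT MII replicate 2 a gene without counts has an upper limit of 623 CPM, and 3 of 11 libraries held few oocyte counts. No member was called between genotypes in GV under any alternative, and Oosp1, Oosp2 and Oosp3 stayed called between stages under all alternatives over the 8 libraries. The cause of the changes below was not tested, other than that leaving out libraries lowers their number.

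Genes called between genotypes in GV (main 0) were 6 with a genotype term over 8 libraries, 25 with all 11 libraries in 1 fit, 3 in DESeq2, 41 with no filter, 78 without the libraries that stand apart and 0 to 385 on leaving out each library. Those in MII (main 4) were 19 with all 11 libraries, 15 in DESeq2, 24 by library size only, 0 with no filter (edgeR, 67 above and 195 below at an unadjusted p under 0.05) and 0 to 1451 on leaving out each library, with 0 to 4 members. Between stages in WT (main 439 genes and 2 members) they were 2219 over 8 libraries with 4 members, 78 with all 11 libraries and 0 with no filter (edgeR, 290 above and 699 below at an unadjusted p under 0.05), both with 0 members. They were 891 in DESeq2 and 925 by library size only, both with 3 members, and 39 to 1902 with 0 to 5 members on leaving out each library. In WT, DESeq2 called Bmp15 at -1.88 (DESeq2 adjusted p = 0.0390) besides Oosp2 and Oosp3. Between stages in Nat10-ZcKO (main 360 genes and 1 member) they were 2219 over 8 libraries with 4 members, 789 in DESeq2 with 2 members, 1445 without the libraries that stand apart with 3 members, and 0 to 778 with 0 to 3 members on leaving out each library, and 2 members passed with no filter and with all 11 libraries. The interaction called 10 genes with no filter, 0 without the libraries that stand apart (edgeR, 158 above and 105 below at an unadjusted p under 0.05, main 35) and 0 to 948 with 0 to 4 members on leaving out each library. The stage fit over 8 libraries called 1204 to 2299 genes on leaving out each library, the lowest without Nat10-ZcKO GV replicate 3.

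Directions that turned were all of members not called in the main fit, other than Oosp3 between stages in WT, where leaving out each library gave -6.39 to 3.15, the lowest against WT MII replicate 2 alone. Gdf9 between stages in WT was at -0.12 with all 11 libraries, -0.87 in DESeq2, -0.11 by library size and -0.22 with no filter, and on leaving out each library Gdf9 gave -11.74 to 0.88 and Oosp1 -3.85 to 3.20. Bmp15 between stages in Nat10-ZcKO was at 0.29, 0.065 and 0.43 with all 11 libraries, by library size and with no filter, and at -0.95 to 0.86 on leaving out each library. In GV, Oosp1 between genotypes was at -0.092 with all 11 libraries, -0.27 with no filter, -0.64 without the libraries that stand apart and -1.45 to 0.74 on leaving out each library, and Oosp2 was at 0.79 without those libraries and -2.71 to 0.080 on leaving out each. In MII, Bmp15 between genotypes was at 0.58, 0.19 and 0.53 with all 11 libraries, in DESeq2 and with no filter, and on leaving out each library Bmp15 gave -1.04 to 8.15 and Gdf9 -0.30 to 12.23, where a value against WT MII replicate 2 alone is no bound. The interaction of Bmp15 was at -0.062 and of Oosp2 at -0.21 without the libraries that stand apart.

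Against the oocyte markers, the GV genotype difference without the libraries that stand apart was -1.38 for Bmp15, -1.53 for Oosp1, -0.087 for Oosp2 and -2.10 for Oosp3, and that in MII was -0.39 for Gdf9 and 0.23 for Oosp2. With 1 added to both counts, Gdf9 was at 0.28 in GV and -0.16 in MII. On leaving out each library the GV difference was -0.74 to 0.77 for Gdf9 and -1.39 to 2.42 for Oosp3, the MII difference was -0.39 to 0.96 for Gdf9 and -6.58 to 0.23 for Oosp2, and the stage difference of Bmp15 was -0.28 to 0.81. The acRIP-seq ratio of Gdf9 was 0.453 with TMM factors and 0.631 with counts on no feature and ambiguous counts in the library size, where Bmp15 was at 3.82 and Oosp1 at 2.15.

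Replicate numbers are shared between groups, but same-numbered libraries did not deviate together, with correlations of -0.03 to 0.21 and 8 of 10 under 0.1. With the replicate block, 0 genes were called between genotypes in MII (edgeR, 6 above and 0 below at an unadjusted p under 0.05) and 0 genes and 0 members between stages in WT (7 above and 46 below), 125 genes between stages in Nat10-ZcKO and 8 in the interaction. Members that turned under the block were Oosp1 in GV (-0.72) and Bmp15 in MII (0.0088) between genotypes, and Gdf9 in WT (-2.17) and Bmp15 in Nat10-ZcKO (0.14) between stages.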

Other observations

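Over the 8 libraries that did not stand apart, the closest genes by Pearson's r of log2 CPM were Tfip11 (0.979), Gch1 and Zfp957 for Gdf9, and Plxnc1 (0.926), Btbd2 and Zfhx3 for Bmp15. For Oosp1 they were Txnip (0.999), Slc39a10 and Kbtbd8, and for Oosp3 Bcl2l10 (0.996), Tubb3 and Wee2. These values follow the split between GV and MII libraries and are given as a description.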
